A study of Mus musculus with 6 samples.

Results

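The transcripts of 9 maternal genes were followed in 6 single mouse morulae: Nlrp5, Ooep, Tle6, Khdc3, Padi6 and Zbed3, which encode the subcortical maternal complex and its partners, and the oocyte genes Npm2, Zp3 and Gdf9. They were chosen by name from a list of 10 genes, and are 9 of the 12125 genes in the table. Zar1, the other gene of the list, is not analysed here. Of the 6 morulae, collected at embryonic day 2.5, 3 were Rbpj-/- (embryos 6 and 7 of litter 808 and embryo 4 of litter 810) and 3 were controls, all of litter 808 (heterozygote embryo 1 and wildtype embryos 3 and 4). The numbers 808 and 810 stand in the sample titles and were taken as litters here, which the paper does not name. The mutants carry a null allele of Rbpj, the DNA-binding effector of Notch, from a line kept heterozygous in an outbred background, and no other allele or treatment was named. Females were not superovulated for this experiment, and embryos were flushed from the reproductive tract.

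The growing mouse oocyte stores large amounts of messenger RNA and protein that carry the embryo through the first divisions. The subcortical maternal complex assembles beneath the egg membrane, is kept out of regions of cell contact after cleavage, and is needed for development beyond the first cleavages, while most stored messenger RNA is degraded as the embryonic genome becomes active. The complex proteins are long lived in mouse and outlast their messenger RNA, so that transcript and protein levels need not follow each other. RNA alone was measured here.

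Each embryo was 1 poly(A)-primed, PCR-amplified library, and the table holds normalised values (CPM, read counts scaled to a common library size) from which whole read counts could be recovered. Rbpj-/- libraries held 2962425 and 4330126 reads (litter 808) and 10064016 reads (litter 810), against 12690030 to 14585313 reads in controls, so that 3 reads stood for values of 0.282 to 1.09 in Rbpj-/- embryos and 0.201 to 0.231 in controls. Depth therefore moved with genotype, and their parts in a difference cannot be told apart. Rbpj itself had values of 10.5, 24.3 and 1.32 in Rbpj-/- embryos, against 37.0 in the heterozygote and values of 111 and 96.9 in wildtype embryos. The authors assigned genotypes from Rbpj and Neo expression, so this is no independent check. Of 12 markers of the morula, 11 had a row in the table, with summed values of 1430 to 2619 in Rbpj-/- embryos and 2599 to 3246 in controls. None of 12 cumulus and granulosa markers had a row. The summed value of 5 measured oviduct markers (of 8) was 20.4 to 174 in Rbpj-/- embryos and 52.2 to 171 in controls, and that of 7 measured blood markers (of 10) was 50.6 to 7306 in Rbpj-/- embryos and 6.14 to 5454 in controls. The part of these other cells in the values below was not tested.

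Locations are those of GRCm38, and all 9 genes are protein coding. Nlrp5 (ENSMUSG00000015721) lies on chr7:23385889-23441922, plus strand, with 16 exons in its longest transcript. Ooep (ENSMUSG00000032346), with 3 exons, lies on chr9:78376109-78378725, minus strand, and Khdc3 (ENSMUSG00000092622), also with 3 exons, on chr9:73101836-73104438, plus strand. Tle6 (ENSMUSG00000034758) lies on chr10:81590904-81601073, minus strand, Padi6 (ENSMUSG00000040935) on chr4:140727355-140742643, minus strand, and Zbed3 (ENSMUSG00000041995) on chr13:95323612-95337841, plus strand. Npm2 (ENSMUSG00000047911) lies on chr14:70647302-70659244, minus strand, Zp3 (ENSMUSG00000004948) on chr5:135980099-135988624, plus strand, and Gdf9 (ENSMUSG00000018238) on chr11:53431023-53437904, plus strand. Khdc3 overlaps the gene model Gm20509 and Npm2 overlaps Xpo7, each on the same strand, so that reads could be divided between the genes of each pair.

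Promoter windows of 300 bases (250 before and 50 after a start site) from RefSeq, build GRCm38.p6, were found for 7 of the 9 genes, 11 windows in all. Those of Khdc3 and Padi6, the highest of the set, of Ooep, the least variable, and of Zp3, the member with the smallest p, are shown 5′ to 3′ on the strand of the gene. Capitals mark GTGGGAA, the core of RBPJ sites, TAATTG, an element bound by the oocyte factor NOBOX, or CACGTG, an E-box, the kind of element through which FIGLA acts on zona pellucida genes. All 3 were searched on both strands, no match overlapped another, and a match on the other strand reads as its complement in reverse.
Khdc3, chr9:73102148-73102447, plus strand: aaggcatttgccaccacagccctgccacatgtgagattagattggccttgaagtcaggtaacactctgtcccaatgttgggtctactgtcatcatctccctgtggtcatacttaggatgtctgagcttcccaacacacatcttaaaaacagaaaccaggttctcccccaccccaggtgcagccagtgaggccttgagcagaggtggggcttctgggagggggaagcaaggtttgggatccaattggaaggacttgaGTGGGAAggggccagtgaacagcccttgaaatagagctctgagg
Padi6, chr4:140742594-140742893, minus strand: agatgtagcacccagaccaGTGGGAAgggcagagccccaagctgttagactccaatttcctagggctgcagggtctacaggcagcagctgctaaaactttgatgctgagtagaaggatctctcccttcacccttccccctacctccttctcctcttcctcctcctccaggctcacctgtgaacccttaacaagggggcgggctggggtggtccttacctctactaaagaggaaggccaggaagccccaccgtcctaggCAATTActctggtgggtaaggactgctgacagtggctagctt
Ooep, chr9:78378539-78378838, minus strand: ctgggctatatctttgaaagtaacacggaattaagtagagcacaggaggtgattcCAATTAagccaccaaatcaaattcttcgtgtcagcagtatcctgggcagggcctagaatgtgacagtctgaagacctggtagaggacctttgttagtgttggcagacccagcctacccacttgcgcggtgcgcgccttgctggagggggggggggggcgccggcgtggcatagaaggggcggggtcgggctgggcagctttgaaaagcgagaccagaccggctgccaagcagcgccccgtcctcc
Zp3, chr5:135979855-135980154, plus strand: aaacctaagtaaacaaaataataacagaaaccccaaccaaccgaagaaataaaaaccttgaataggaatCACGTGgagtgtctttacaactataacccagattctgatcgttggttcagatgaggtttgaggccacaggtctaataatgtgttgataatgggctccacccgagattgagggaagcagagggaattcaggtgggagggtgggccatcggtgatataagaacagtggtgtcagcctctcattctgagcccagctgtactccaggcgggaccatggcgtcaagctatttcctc
GTGGGAA was present in a window of 4 of the 7 genes (Khdc3, Padi6, Tle6 and Zbed3) and in 5 of the 11 windows, against 6.38% of all 32851 windows of the same length and 6.91% of the 8572 measured genes with a window. In Khdc3 it spans bases 257 to 263 of the window and lies after the start site, and in Padi6 bases 20 to 26. In Tle6 and Zbed3 it was absent from the window at the annotated start of the gene and lay in other windows. Read on the strand of the match, the letter before GTGGGAA was A or G in every member match. The sites that the paper mutated, near Tle4 and in Tbx3, have T or C there. Windows with T or C before GTGGGAA were not counted, so these shares do not show an excess of RBPJ sites. TAATTG was present in 2 genes, at bases 259 to 264 of the Padi6 window and 56 to 61 of the Ooep window, against 8% of all windows and 5.62% of the measured genes. CACGTG was present in 2 genes, in Zp3 at bases 70 to 75 and in Tle6, against 7.15% of all windows and 12.05% of the measured genes. These are letters in a window, not measured binding sites.

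Khdc3, whose protein (FILIA) helps keep chromosome number and genome integrity in the early embryo, was by far the most abundant of the set. It had values of 655, 425 and 1259 in Rbpj-/- embryos 6 and 7 of litter 808 and 4 of litter 810, against 484 in the heterozygote and 606 and 443 in wildtype embryos 3 and 4. The embryo of litter 810 stood above the other 5, whereas both Rbpj-/- embryos of litter 808 lay outside the range of their littermates on opposite sides. Counting error alone (exact Poisson 95% intervals) gave 405 to 445 for Rbpj-/- embryo 7, which includes the value of wildtype embryo 4, and 1238 to 1281 for the embryo of litter 810. The mean was 780 ± 431 in Rbpj-/- embryos and 511 ± 85.1 in controls (SD, n = 3 each). On the log2(value + 1) scale the difference was 0.48 (SE 0.37, adjusted p = 0.536, limma over all genes tested, with Benjamini-Hochberg adjustment). Khdc3 made up 91.7%, 75.7% and 92.7% of the summed values of the 6 complex genes in Rbpj-/- embryos, against 89.4%, 86.6% and 87.3% in controls.

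Padi6 encodes an arginine deiminase family protein needed for the cytoplasmic lattices of the egg. Its values were 24.0, 107 and 66.1 in Rbpj-/- embryos, against 29.4 in the heterozygote and 57.9 and 46.1 in wildtype embryos. The lowest and the highest embryo of the set were thus both Rbpj-/- littermates, which differed by more than their counting intervals (18.5 to 30.5 and 97.6 to 118, exact Poisson 95% intervals, which cover counting error only). The mean was 65.8 ± 41.7 in Rbpj-/- embryos and 44.5 ± 14.3 in controls (SD, n = 3 each), a log2 difference of 0.37 (SE 0.54, limma adjusted p = 0.752).

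Nlrp5 (MATER), a scaffold of the complex that is required in the mother for development past the first cleavage, had the lowest mean of the set per transcript length. It had values of 2.90, 2.21 and 8.75 in Rbpj-/- embryos, from 8, 9 and 93 reads, against 0.231 in the heterozygote and 6.14 and 0 in wildtype embryos 3 and 4, from 3, 91 and 0 reads. The controls thus spanned nearly the whole range, and 3 reads, the limit taken for a count of 0, would be a value of 0.201 in wildtype embryo 4. The log2 difference was 1.27 (SE 0.89, limma adjusted p = 0.490), and the groups overlapped. It was 2.16 without wildtype embryo 3 and 0.74 without wildtype embryo 4, and 2.74 and 0.48 with pseudocounts of 0.1 and 5.

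Ooep encodes a subunit of the complex with a KH-like domain (FLOPED). Its values were 6.53, 12.3 and 5.55 in Rbpj-/- embryos, against 6.15 in the heterozygote and 7.96 and 4.15 in wildtype embryos. It varied least between embryos, with a standard deviation of log2(value + 1) of 0.46 over the 6 morulae, beside a median of 1.05 for the 4180 genes with a mean value between 1 and 10. The log2 difference was 0.33 (SE 0.66, limma adjusted p = 0.828).

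Tle6, a Groucho family member that serves in the complex, had values of 12.7, 4.43 and 13.3 in Rbpj-/- embryos, against 2.38 in the heterozygote and 4.25 and 11.7 in wildtype embryos. High and low embryos occurred in both groups, and the log2 difference was 0.75 (SE 0.76, limma adjusted p = 0.645). Zbed3, whose protein associates with the complex and helps to centre the cleavage spindle, had values of 13.4, 9.83 and 5.27 in Rbpj-/- embryos, against 19.3 in the heterozygote and 17.5 and 2.34 in wildtype embryos. It was the member with a negative log2 difference over all 6 embryos (-0.12, SE 0.81, limma adjusted p = 0.957).

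**Figure D1:**
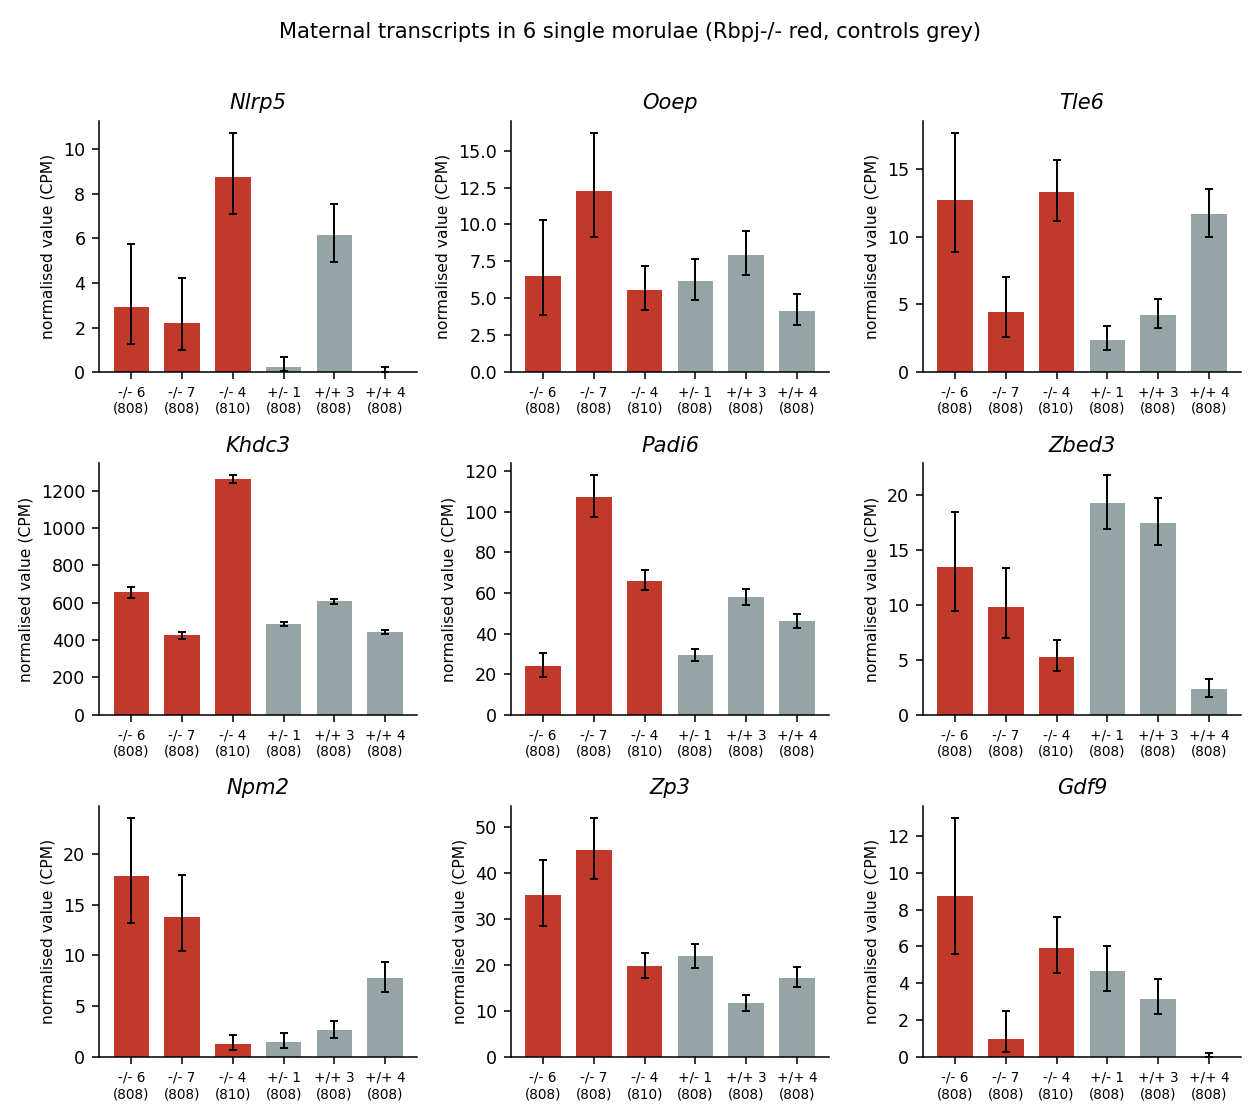
Normalised value (CPM, vertical axis) of each of the 9 genes in the 3 Rbpj-/- embryos (red) and the 3 controls (grey), with the embryo number and, in brackets, its litter below each bar; error bars are exact Poisson 95% intervals and cover counting error only. Khdc3 was highest in the Rbpj-/- embryo of litter 810 (1259), and Zp3 and Npm2 were higher in both Rbpj-/- embryos of litter 808 than in the 3 controls.

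Of the oocyte genes outside the complex, Zp3 encodes a glycoprotein of the zona pellucida, the coat of the egg, made during oocyte growth. Its values were 35.2, 45.0 and 19.9 in Rbpj-/- embryos, against 21.9 in the heterozygote and 11.7 and 17.3 in wildtype embryos, from 97 to 285 reads. Both Rbpj-/- embryos of litter 808 were above all 3 controls, and the embryo of litter 810 was inside their range. The mean was 33.4 ± 12.7 in Rbpj-/- embryos and 17.0 ± 5.09 in controls (SD, n = 3 each), a log2 difference of 0.90 (SE 0.51, limma adjusted p = 0.384).

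Npm2, the oocyte nucleoplasmin that acts on sperm chromatin and the nucleoli of the zygote, had values of 17.8, 13.8 and 1.32 in Rbpj-/- embryos, against 1.54 in the heterozygote and 2.63 and 7.77 in wildtype embryos. As for Zp3, both Rbpj-/- embryos of litter 808 were above the controls, but the embryo of litter 810 was below all of them. Over all 6 embryos the log2 difference was 0.998 (SE 0.92, limma adjusted p = 0.607). Xpo7, taken for its overlap with Npm2 after the values were seen, had values of 12.3, 25.8 and 122 in Rbpj-/- embryos, against 135 in the heterozygote and 171 and 166 in wildtype embryos. Its lowest values fell in the embryos with the most Npm2, and the division of reads between the genes was not tested. Gdf9, a growth factor by which the oocyte acts on granulosa cells, had values of 8.71, 0.983 and 5.93 in Rbpj-/- embryos, against 4.69 in the heterozygote and 3.17 and 0 in wildtype embryos (log2 difference 0.83, SE 0.90, limma adjusted p = 0.671).

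Levels were compared between genes per kilobase of the longest annotated transcript. Khdc3 led in all 6 embryos, with a mean of 384 ± 187 per kb (SD, n = 6), 16.2 times that of Padi6, and stood at percentile 98.0 of the genes with a known length. Padi6 (23.6 ± 13.0 per kb) and Zp3 (19.0 ± 9.41 per kb) did not differ beyond their spread, Padi6 being higher in 4 of 6 embryos, and Zp3 was above Npm2 (7.49 ± 6.99 per kb) in 6 of 6. Below these, Zbed3 averaged 5.80 per kb, Tle6 4.03, Ooep 3.32, Gdf9 2.18 and Nlrp5 0.961. From Npm2 downward, each gene exceeded the next in 3 or 4 of 6 embryos, so that none of these neighbours differed beyond their spread. By the median annotated transcript, short for some genes, means were 84.96 for Padi6, 13.0 for Tle6 and 9.12 per kb for Gdf9. The places of Tle6 and Gdf9 thus depend on the transcript taken, while Khdc3, Padi6 and Zp3 led in the same order. The gaps between these leaders depend on it too. By the median transcript Khdc3 averaged 521 and Zp3 24.5 per kb, and Padi6 was above Zp3 in every embryo.

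**Figure D2:**
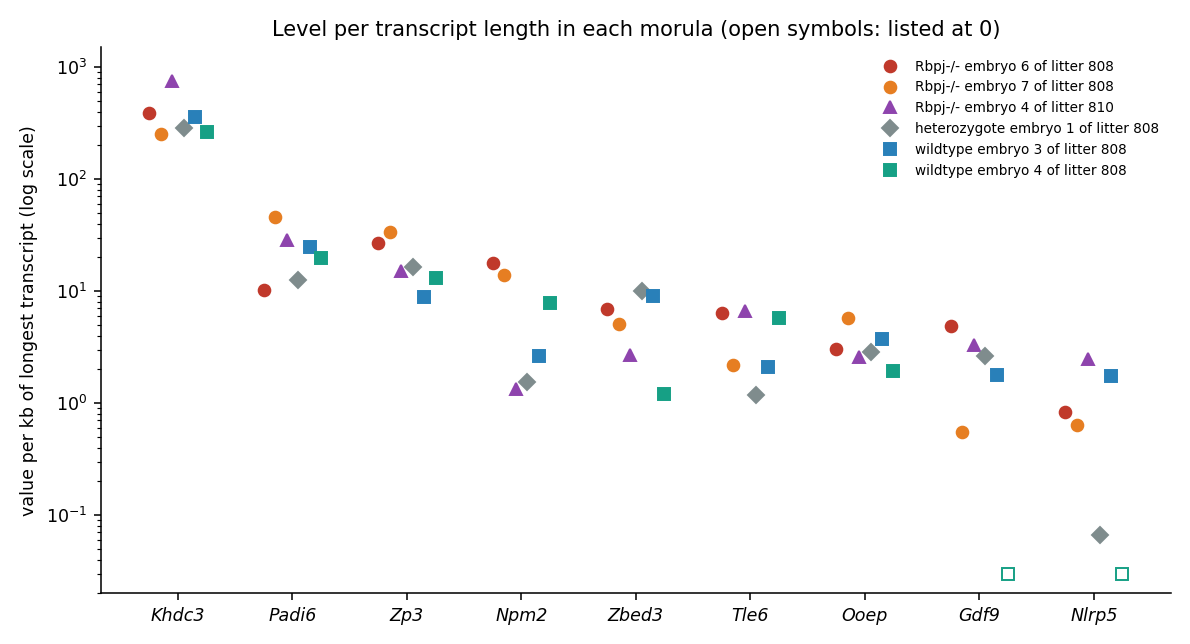
Value per kilobase of the longest annotated transcript (log scale, vertical axis) of each gene, in descending order of the mean, with 1 point for each embryo and open symbols, at an arbitrary height, for values of 0. Khdc3 (mean 384 per kb) lies above every other gene in all 6 embryos, and Gdf9 and Nlrp5 are at 0 in wildtype embryo 4.

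The first comparison asked whether Rbpj-/- morulae held more or less of these RNAs than controls, over all 6 embryos. None of the 9 genes, all of which passed the filter on low values, was called at an adjusted p of 0.05 by limma, and 0 had an unadjusted p under 0.05. The background was 0% of 12099 genes called by limma in either direction, with 1985 at an unadjusted p under 0.05. The lowest adjusted p of any gene was 0.142. The paper, by edgeR, did report differentially expressed genes between 3 mutant and 3 control embryos, most of them lower in mutants. edgeR called 0 and DESeq2 0 of the 9, with no adjusted p from DESeq2 for 5 of them. The 0% above is that of limma, and the share of all genes called by edgeR or DESeq2 was not counted here. DESeq2 did call genes outside the set, among them Cnot1 (DESeq2 adjusted p = 0.023) and Dppa3 (DESeq2 adjusted p = 0.039). Whether 0 of the 9 is few therefore cannot be told for edgeR or DESeq2. The log2 difference was positive for 8 of the 9, with a median of 0.75, beside 45.2% positive and a median of -0.11 over all genes tested. With a trend with transcript length removed in each embryo, 8 were positive, and the medians were 0.37 and -0.14. With the values as deposited, the 95% intervals reached from -1.90 at the lowest (Zbed3) to 3.24 at the highest (Nlrp5). The narrowest was that of Khdc3 (-0.35 to 1.299). In none of the 9 were the 3 Rbpj-/- embryos all above or all below the 3 controls, which 8.91% and 12.8% of all genes were. An exact two-sided permutation test of 3 against 3 embryos cannot give a p below 0.1, and no member reached it (0.2 for Tle6 and Zp3, the smallest).

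Because all controls were of litter 808, the Rbpj-/- embryo of litter 810 has no littermate, and litter and genotype cannot be told apart in it. A fit with litter as a term set Rbpj-/- embryos 6 and 7 against the 3 controls, all from litter 808. None of the 9 genes was called by limma or edgeR, beside 5.85% of all genes called higher and 11.3% called lower in Rbpj-/- littermates by limma. Zp3 and Npm2 had an unadjusted limma p under 0.05, as did every gene that limma called. The share of all genes at that level, and the share called by edgeR, were not counted. The difference of Zp3 was 1.22 on the log2 scale (SE 0.47, 95% interval 0.17 to 2.28, adjusted p = 0.104) and that of Npm2 1.95 (SE 0.78, 95% interval 0.20 to 3.69, adjusted p = 0.116). DESeq2 called Zp3 higher (adjusted p = 0.0449) and no other member, beside 10.5% of all genes called higher by DESeq2. These were also the 2 genes with both Rbpj-/- littermates above all 3 controls, which held for 21.2% of all genes, and 0 of the 9 had both below, which held for 27% of all genes.

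For the complex genes the littermate differences were smaller than their errors. They were 0.78 for Nlrp5 (SE 0.95), 0.53 for Ooep (SE 0.69), 0.50 for Tle6 (SE 0.81), 0.25 for Padi6 (SE 0.58), 0.21 for Zbed3 (SE 0.86) and 0.06 for Khdc3 (SE 0.24), with adjusted p of 0.623 to 0.897. Khdc3 was the most tightly bounded, with a 95% interval of -0.48 to 0.60. The median over the 9 genes was 0.53, beside -0.16 over all genes tested. Fold changes in this litter varied with transcript length, and with that trend removed in each embryo the median was 0.12 over the 9 genes and -0.20 over all, with 0.49 for Zp3 (adjusted p = 0.558) and 1.09 for Npm2 (adjusted p = 0.424). In whole embryos, fewer cells holding a transcript and less of it per cell cannot be told apart, and the p-values rest on the spread between single embryos.

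**Figure D3:**
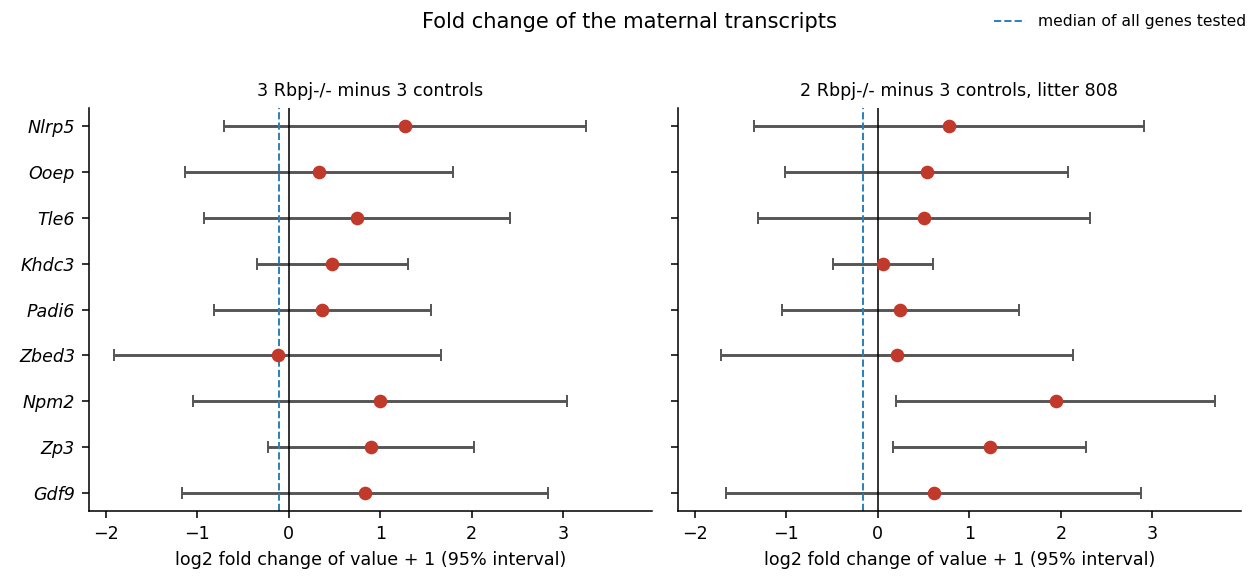
Log2 fold change of value + 1 (horizontal axis) with its 95% interval for each gene, for all 3 Rbpj-/- embryos against the 3 controls (left) and for Rbpj-/- embryos 6 and 7 of litter 808 against the same controls with litter as a term (right); the dashed line is the median of all genes tested. All intervals on the left include 0, and on the right those of Npm2 (0.20 to 3.69) and Zp3 (0.17 to 2.28) do not.

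The highest value was in Rbpj-/- embryo 4 of litter 810 for Nlrp5, Tle6 and Khdc3, in Rbpj-/- embryo 7 for Ooep, Padi6 and Zp3, in Rbpj-/- embryo 6 for Npm2 and Gdf9, and in the heterozygote for Zbed3. Averaged over Nlrp5, Ooep, Tle6, Khdc3 and Padi6, log2(value + 1) deviated from its own mean by 0.04, 0.18 and 0.75 in Rbpj-/- embryos, against -0.75 in the heterozygote and 0.21 and -0.42 in wildtype embryos. The root mean square distance from this pattern was 0.364 for Khdc3, 0.543 for Ooep, 0.603 for Padi6, 0.728 for Tle6 and 0.787 for Nlrp5, each of which is itself part of the average. Over the 7812 genes with a mean value of at least 10 the median distance was 0.740, and Tle6 and Nlrp5 lay near that median. Tle6, Nlrp5 and Ooep had mean values of 8.11, 3.37 and 7.11, so they lie outside that set, and no median was taken at their level. Among the 7812 genes, the nearest to the pattern were Snapin (0.139), Nipsnap1 (0.144), Pura (0.168), Acad8 (0.183) and Kif3a (0.187). The distance was 0.765 for Zp3, 1.0825 for Gdf9, 1.09 for Zbed3 and 1.32 for Npm2, which are no part of the average. By the standard deviation of log2(value + 1) over the 6 morulae, 3 of the 5 members with a mean value under 10 (Nlrp5, Npm2 and Gdf9), 2 of the 3 between 10 and 100 (Padi6 and Zbed3) and Khdc3 above 100 exceeded the median of the genes in their range.

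Other oocyte and maternal lists were set beside the members, between littermates and with the same 5.85% and 11.3% as background. Of 49 other oocyte and egg genes, 19 had a row, of which 2 were called higher and 1 lower. Oog1, an oocyte-specific gene, had values of 10.9, 6.64 and 1.22 in Rbpj-/- embryos, against 0 in the heterozygote and 0 and 0.938 in wildtype embryos (log2 difference 2.93, limma adjusted p = 0.026), and Dppa3 (Stella), which protects maternal methylation, had 5435, 5456 and 2864 in Rbpj-/- embryos, against 2574 in the heterozygote and 2243 and 2223 in wildtype embryos (1.22, limma adjusted p = 0.003). As with Zp3, the Rbpj-/- embryo of litter 810 was nearer to the controls. Fbxw24, an oocyte F-box gene, was at 0 in all 3 Rbpj-/- embryos, against 4.69, 7.55 and 6.03 in controls (limma adjusted p = 0.025), and Tcl1 did not pass (adjusted p = 0.168). Of 12 other oocyte NLRP genes, relatives of Nlrp5, 3 had a row, and 0 were called or had an unadjusted p under 0.05 (limma adjusted p: 0.195 for Nlrp9c, 0.207 for Nlrp14 and 0.827 for Nlrp4f).

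Maternal effect genes outside the complex, most of which the embryo also transcribes, had 23 members with a row, of which 7 were called lower and 1 higher, with a median log2 difference of -0.37. Cdh1, the adhesion molecule of compaction, had a log2 difference of -2.46, Ago2 of -1.89 and Hsf1 of -1.83 (limma adjusted p of 0.001, 0.003 and 0.013), and Dppa3 was the one called higher. Of 31 measured factors of messenger RNA deadenylation and decay, 8 were called lower and 0 higher, among them Upf1, of nonsense-mediated decay (log2 difference -3.71), Dcp1a (-2.91) and Edc4 (-2.21), of decapping, and Cnot1, the scaffold of the CCR4-NOT deadenylase (-2.80). Their summed value was 1504, 1809 and 2022 in Rbpj-/- embryos, against 2459 to 2574 in controls. Of 14 measured 2-cell and early zygotic genes, 3 were called higher (Dppa4, Obox6 and Tmem92) and 1 lower (Duxbl2). Duxbl2 had values of 0.363, 0 and 1.51 in Rbpj-/- embryos, against 4.30 in the heterozygote and 36.5 and 40.7 in wildtype embryos. Duxbl3, the other measured Duxbl gene of the list, went the opposite way, with 37.0, 52.1 and 49.4 against 24.1, 7.08 and 3.42. It was not called (log2 difference 2.22, limma adjusted p = 0.057), and the division of reads between them was not tested. With the length trend removed, Dppa3, Dppa4, Obox6, Tmem92 and Edc4 no longer passed, and the calls fell to 3 maternal effect genes, 4 decay factors and 1 early zygotic gene. Leaving out the heterozygote, wildtype embryo 3 or wildtype embryo 4 left 2 decay factors, 3, 3 and 4 maternal effect genes, and 1 oocyte and egg gene, and leaving out either wildtype embryo left 0 early zygotic genes. Leaving out Rbpj-/- embryo 6 left 1 oocyte and egg gene and 2 early zygotic genes, and leaving out Rbpj-/- embryo 7 left 2 early zygotic genes. No member was called under any of these settings. The share of all genes called under them was not counted, so a fall particular to these lists cannot be told from a general one.

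**Figure D4:**
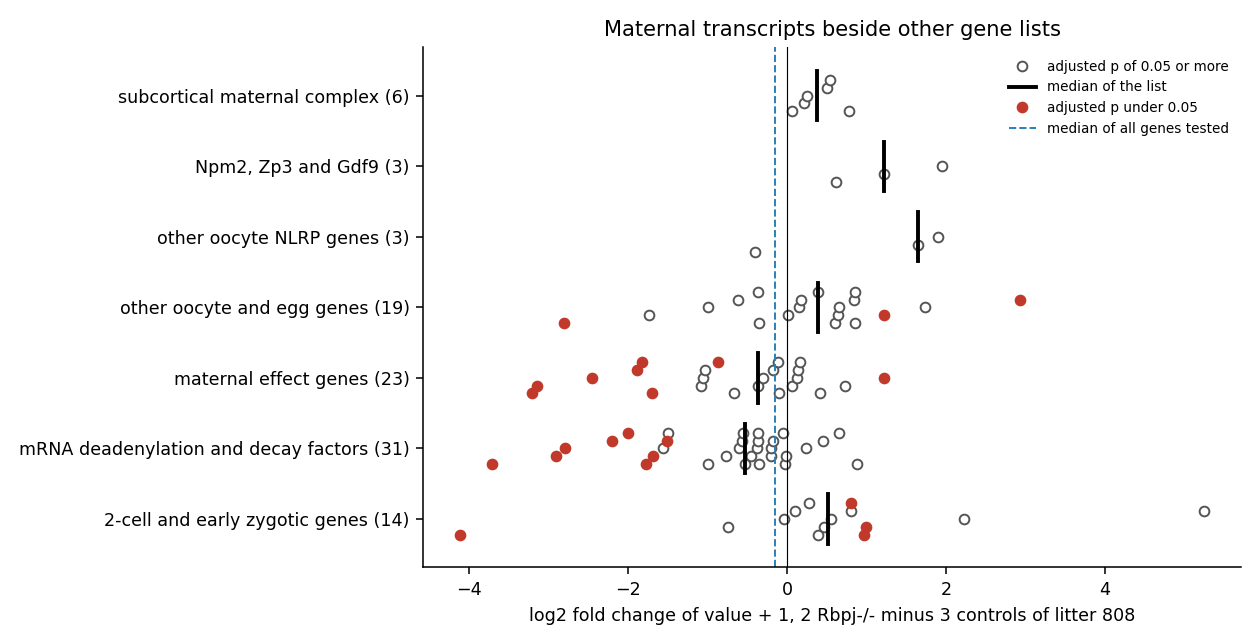
Log2 fold change of value + 1 between the 2 Rbpj-/- embryos and the 3 controls of litter 808 (horizontal axis) for each measured gene of each list, filled where the limma adjusted p was under 0.05, with the number of genes in brackets; black ticks are list medians and the dashed line is the median of all genes tested. The 6 complex genes lie between 0.06 and 0.78 with none filled, whereas 8 of 31 decay factors are filled, all below 0.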

How the data were processed

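Single morulae at embryonic day 2.5 were profiled by poly(A)-primed, PCR-amplified RNA-seq (60-base reads, no strand information). The authors quantified reads with RSEM against GRCm38 and deposited TMM-normalised CPM, a signal value per gene and embryo, and the submitters' notes also name CASAVA 1.8.2 and cutadapt 1.3. They give RSEM 1.2.3, whereas the paper's methods name another release. For the filter that left 12125 genes, the sources used here give no rule. Every value was a whole read count times a fixed step per embryo (100% within 0.01 of a read), which gave depths of 2962425 to 14585313 reads.

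The 12099 genes exceeding 1 in 3 or more embryos were tested by genotype alone and with litter as a term, on log2(value + 1), in limma 3.58.1 (R 4.3.3, variance trend, two-sided, Benjamini-Hochberg adjustment, threshold 0.05). With 113 of the genes unnamed in the table, lengths and locations came from GENCODE mouse release 21, which held 12019 of the 12125 genes. As alternatives, edgeR 4.0.16 and DESeq2 1.42.0 were run on the recovered reads, a loess length trend (span 0.5) was removed, the heterozygote or each embryo was left out, the pseudocount was 0.1 or 5, the filter was dropped or set to a mean of 10, scaling was by median of ratios or quantiles, and limma was run with array weights (all 6 embryos) or without the variance trend. Genes named were all members, Rbpj, up to 4 genes of each list with the smallest littermate p, and the 5 nearest in pattern. Xpo7 was added for its overlap with Npm2, and Duxbl3 for its likeness in name to Duxbl2. The members and lists were chosen with earlier results of these data known. The fits were tested on simulated data with a common dispersion, large changes in genes of higher value and no litter effect. Those data do not measure the power to detect changes in the members.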

Additional observations from a re-analysis of the deposited data

How the results depend on the processing

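The 0 members called over all 6 embryos and the 0 called between littermates held under each alternative run (a mean of at least 10 leaves Khdc3, Padi6, Zbed3 and Zp3 to test), except that DESeq2 called 1 gene higher between littermates (Zp3). Directions of single genes that did not pass the test turned as follows. Over all 6 embryos, Zbed3 became 0.12 with quantile normalisation and 0.34 without the heterozygote, and Gdf9 -0.0705 with array weights. Between littermates, Khdc3 became -0.17 with quantile normalisation and -0.49 without the length trend, Padi6 -0.0180 without the heterozygote, and Zbed3 -0.17 with edgeR, -0.0798 with DESeq2 and -0.21 without the length trend. Leaving out 1 embryo at a time gave ranges of -0.10 to 0.96 for Padi6 and -0.96 to 0.34 for Zbed3 over all 6 embryos, and, between littermates, -0.16 to 1.17 for Tle6, -0.25 to 0.37 for Khdc3, -0.81 to 1.31 for Padi6, -0.63 to 0.67 for Zbed3 and -0.53 to 1.76 for Gdf9. The same ranges between littermates were 0.996 to 1.42 for Zp3 and 1.56 to 2.46 for Npm2, while removing the length trend gave 0.49 and 1.09, and a pseudocount of 5 gave 1.27 for Npm2. Over all 6 embryos they were 0.74 to 2.16 for Nlrp5 and 0.07 to 1.51 for Gdf9. With the median annotated transcript, the mean per kb was 13.0 for Tle6, 84.96 for Padi6 and 9.12 for Gdf9. Removing the length trend left 3 maternal effect genes, 4 decay factors and 1 early zygotic gene called, and leaving out 1 embryo at a time gave 1 to 3 other oocyte and egg genes, 3 to 8 maternal effect genes, 2 to 8 decay factors and 0 to 4 early zygotic genes. The share of all genes called under these settings was not counted, and the causes were not tested. Quantile normalisation moved the median of all genes to 0.07 over all 6 embryos and 0.10 between littermates, beside -0.11 and -0.16 as deposited. Embryo numbers are labels that pair no embryos between the groups, and litter was the grouping fitted, so no paired analysis was run. Values of Nlrp5 and Gdf9 rest on few reads in several embryos (8, 9 and 3 of Nlrp5 and 4 of Gdf9, and 0 of both in wildtype embryo 4, the deepest library).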
